A study of Homo sapiens with 30 samples.

Results

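Intronic peaks are iCLIP peaks of myc-tagged LARP6 that lie inside a gene but outside its exons. A peak was counted as intronic when the base at its centre fell inside a gene and in no exon of any transcript on the same strand, by GENCODE release 44 on GRCh38. By this rule 3640 of the 48311 peaks in the 5 deposited lists were intronic, 44600 were exonic and 71 lay outside the genes of their strand. The full-length (FL) list held 1208 intronic peaks among 14334, ΔNTR 1106 among 17180 and ΔCTR 1051 among 15870, whereas ΔLa-module held 190 among 636 and ΔNTD 85 among 291. Values for all 5 lists are given below in this order. An intronic peak is defined by annotation alone, so the gene around it is called its host without implying that the RNA came from the host's pre-mRNA.

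iCLIP crosslinks a protein to the RNA it touches with ultraviolet light, pulls the complexes down with an antibody, here against the myc tag, and reads the crosslinked base from the point at which reverse transcription stopped. The cells were U-87 MG, an established human glioblastoma line, transduced with lentivirus and selected with puromycin so that doxycycline induced myc-LARP6 FL or a variant that lacked the N-terminal disordered region (ΔNTR), the La-module (ΔLa-module), both of these (ΔNTD) or the C-terminal region (ΔCTR). Parental cells without a transgene were the negative control, and every line received 60 ng/mL doxycycline for 24 h. There were 18 iCLIP samples, with 3 replicates for each of the 6 lines. The lines kept their own LARP6, and no source used here names single-cell clones. The authors merged the replicates into 1 list per variant, summed the peak scores and removed parental peaks, so the lists hold no replicate spread and iCLIP depth is not known from them. No p-value is given, and the intervals in parentheses are 95% intervals for counting error only. Each line also had 2 input RNA libraries, a single-end library of 50 nt reads titled small RNA by the labels (SE50, 6181270 to 10307756 counts) and a paired-end library of 150 nt reads (PE150, 25027075 to 28692476 counts). In the 6 PE150 libraries the mesenchymal genes that mark U-87 MG were high, with VIM at 7073 to 7986 counts in a library scaled to a total of 1e6 (CPM) and CD44 at 2079 to 2312. GFAP, an astrocyte marker, was at 0 to 0.240 CPM and SOX2 at 0 to 0.0358, and the leukocyte gene PTPRC was at 0.0742 or less. SNAP25, listed as a neuronal marker, was at 57.8 to 65.6 CPM.

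Introns are cut out of precursor mRNA in the nucleus by the spliceosome and are mostly degraded, so mature mRNA in the cytoplasm lacks them. Introns are also home to other transcription units, among them tRNA genes, which RNA polymerase III reads from promoter boxes inside the gene, and snoRNAs and microRNAs, many of which are released from the host intron. LARP6 belongs to the La-related proteins, whose founding member La binds the 3′ ends of new polymerase III transcripts such as precursor tRNAs, and LARP6 itself is known for binding the 5′ stem-loop of type I collagen mRNAs.

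The sites found in 4 or 5 lists were mostly tRNA sequences, and 5 whole tRNA genes that lie in annotated introns are shown first. Each is printed 5′ to 3′ on its own strand, from the GRCh38 reference at the RefSeq position of the tRNA gene, and capitals mark the bases under the FL peak. These 5 genes carried a peak in all 5 lists. In order they lie at chr6:28478623-28478704 on the minus strand in the lncRNA gene ENSG00000287804, chr19:45478601-45478687 on the minus strand in ERCC1, chr16:87384022-87384094 on the minus strand in FBXO31, chr1:159141611-159141684 on the minus strand in AIM2 and chr2:27051214-27051286 on the plus strand in AGBL5.
TRL-AAG4-1: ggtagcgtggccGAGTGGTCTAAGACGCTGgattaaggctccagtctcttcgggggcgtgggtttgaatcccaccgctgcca
TRU-TCA1-1: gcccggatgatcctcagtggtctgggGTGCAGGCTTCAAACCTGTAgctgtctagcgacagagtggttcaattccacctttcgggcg
TRM-CAT6-1: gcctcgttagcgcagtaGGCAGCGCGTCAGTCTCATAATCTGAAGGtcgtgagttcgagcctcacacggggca
TRR-TCT4-1: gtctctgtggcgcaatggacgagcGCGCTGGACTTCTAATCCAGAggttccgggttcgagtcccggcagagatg
TRA-AGC8-1: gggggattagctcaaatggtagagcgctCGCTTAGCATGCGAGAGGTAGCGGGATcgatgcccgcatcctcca

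Another frequent position was the 5′ end of the tRNA. In the next 3 sequences, each 71 nt around a peak centre, capitals mark the bases that match a tRNA, so the step from lower case to capitals is the start of the tRNA and the peak centre lay within a few bases of it. ENSG00000290790 (chr1:149692832-149692902, minus strand) holds a tRNA-like copy that RefSeq does not list as a tRNA gene. ENSG00000283360 (chr1:161422121-161422191, minus strand) and LINC01623 (chr6:28863713-28863783, minus strand) hold the tRNA genes TRE-TTC4-2 and TRA-AGC2-2.
ENSG00000290790: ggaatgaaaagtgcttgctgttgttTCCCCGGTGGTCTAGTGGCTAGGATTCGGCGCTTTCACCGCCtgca
ENSG00000283360: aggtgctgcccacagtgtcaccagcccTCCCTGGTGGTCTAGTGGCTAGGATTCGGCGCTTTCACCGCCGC
LINC01623: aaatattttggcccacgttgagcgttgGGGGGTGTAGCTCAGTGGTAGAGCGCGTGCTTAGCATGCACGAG

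The following 6 sequences are intronic sites with high scores and no tRNA match, shown for contrast. Each is 61 nt around the FL peak centre and capitals mark the FL peak, from chr2:43011106-43011166 on the minus strand, chr2:109301881-109301941 on the plus strand, chr6:83164765-83164825 on the plus strand, chr2:43467935-43467995 on the minus strand, chr1:231422291-231422351 on the minus strand and chr9:99142505-99142565 on the plus strand, in the order printed. The SH3RF3 and LINC01819 sites were in all 5 lists. The ENSG00000287856 site resembles 45S rRNA, and the TGFBR1 peak straddles the last bases of an intron.
LINC01819: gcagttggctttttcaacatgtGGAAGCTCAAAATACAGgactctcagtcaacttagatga
SH3RF3: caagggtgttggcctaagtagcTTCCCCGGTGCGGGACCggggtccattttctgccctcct
DOP1A: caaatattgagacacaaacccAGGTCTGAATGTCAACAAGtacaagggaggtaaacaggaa
THADA: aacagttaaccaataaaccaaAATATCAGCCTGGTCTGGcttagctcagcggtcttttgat
ENSG00000287856: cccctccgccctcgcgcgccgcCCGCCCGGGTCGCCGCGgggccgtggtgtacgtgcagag
TGFBR1: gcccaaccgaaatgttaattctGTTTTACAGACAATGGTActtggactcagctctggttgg

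Intronic peaks were a small part of the lists of the 3 variants that keep the La-module and a large part of the other 2 lists. They were 8.43% of the FL list (7.98 to 8.89), 6.44% of ΔNTR (6.08 to 6.81) and 6.62% of ΔCTR (6.25 to 7.02). In ΔLa-module they were 29.9% (26.4 to 33.5) and in ΔNTD 29.2% (24.3 to 34.7). The share was higher than in FL by 21.4 percentage points in ΔLa-module (18 to 25.1) and by 20.8 points in ΔNTD (15.8 to 26.3), while ΔNTR differed from FL by -1.99 points (-2.58 to -1.41) and ΔCTR by -1.80 points (-2.40 to -1.21). The higher share did not come with more peaks, since both short lists held fewer intronic peaks than FL. Against FL, the summed score of intronic peaks outside tRNA sequences was 9.38% in ΔLa-module and 4.06% in ΔNTD, whereas the summed score of exonic peaks was 1.67% and 0.706%. The score is the authors' summed value and is not scaled to depth or input, so the comparison is between intronic and exonic peaks of the same lists.

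Most intronic peaks were narrow and held the smallest score in the lists. The minimum score of 3 was the score of 73.5% of the FL intronic peaks (70.9 to 75.9), against 51.9% of the FL exonic peaks (51 to 52.7). In list order the mean score was 6.21, 4.86, 5.72, 3.83 and 3.76, and the median was 3 in each list. A few strong peaks sat above this floor, and the 10 highest held 18.7% of the summed intronic score in FL and 26.9% in ΔNTD. In width, 72.1% of the FL intronic peaks were at most 17 nt, against 26.9% of the exonic peaks. The gap in width was also present at a score of 10 or more, where 23.9% of FL intronic peaks (16.4 to 33.6) and 0.875% of FL exonic peaks (0.539 to 1.42) were that narrow. A rolling mean of 15 nt was used to call the peaks, so such a width is close to the smallest that a single crosslinked position gives.

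Placement of some peaks was uncertain, since the central 25 nt occurred more than 1 time in the genome for 13% of the FL intronic peaks (11.2 to 15.0) and for 6.08% of the exonic peaks (5.69 to 6.50). Among FL peaks with a score of 10 or more these shares were 27.2% and 8.21%, a difference of 19.0 points (10.8 to 28.9). In ΔLa-module the shares were 10.5% of intronic and 9.68% of exonic peaks, a difference of 0.842 points (-3.92 to 6.55).

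tRNA sequence was the leading feature of the strong intronic peaks. Of the FL intronic peaks, 33 lay on a RefSeq tRNA gene and 13 on a tRNA copy, which means a match of at least 40 nt to a tRNA outside the listed genes. Together these 46 peaks were 3.81% of the FL intronic peaks (2.87 to 5.04) and carried 21.1% of their summed score. Matches were sought in the 50 nt on each side of the centre, and windows of the same length, set every 2000 nt along host introns, held such a match in 4 of 45592 cases, or 0.00877%. ΔNTR and ΔCTR had similar shares of 3.89% and 3.81%, and the shares in ΔLa-module and ΔNTD were 8.42% (16 of 190) and 10.6% (9 of 85). Each of the 5 lists had 0 peaks with such a match on the opposite strand. RefSeq tRNA genes are named here by amino acid letter and anticodon, and their strand was inferred from their promoter boxes. Reads that mapped to tRNA had been set aside by the authors before genome alignment, so these peaks rest on reads that passed this step, and the share of tRNA reads removed is not known from the lists.

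Peaks on tRNA genes had higher scores than other intronic peaks in all 5 lists. In list order the mean score on tRNA genes was 31.9, 16.7, 27.5, 11.2 and 6.57. For intronic peaks on neither tRNA genes nor copies it was 5.09, 4.35, 4.84, 3.19 and 3.16. A score of 10 or more was reached by 57.6% of the FL tRNA gene peaks (40.8 to 72.8) and by 5.94% of the other FL intronic peaks (4.72 to 7.45). In ΔLa-module 4 of 11 tRNA gene peaks reached it, against 1 of 174 others. Of the 92 FL intronic peaks at that score, 23 were on tRNA genes or copies (25%), 8 matched 45S rRNA over at least 40 nt, 5 matched 7SL RNA and 56 did none of these.

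Among 423 RefSeq tRNA genes on chromosomes 1 to 22 and X, 89 had their centre in an intron on their own strand. An intronic peak of any list lay on 30 tRNA genes, and the single lists, in order, covered 24, 28, 23, 11 and 7. These 30 genes spread over 16 families by name, with at most 4 genes in a family (alanine and lysine). The sizes of the families among all tRNA genes were not counted, so no preference can be read from this. Of the 30, 6 were in all 5 lists, 6 in 4, 8 in 3, 5 in 2 and 5 in a single list.

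The score of each of these genes is the sum over its intronic peaks. TRL-AAG4-1, a leucine tRNA in ENSG00000287804, scored 191 with FL, 69 with ΔNTR, 87 with ΔCTR, 33 with ΔLa-module and 12 with ΔNTD. TRU-TCA1-1, the tRNA for selenocysteine, lies in an intron of ERCC1, a DNA repair gene, with its peak 85 nt from the 5′ splice site, and scored 123, 42, 70, 28 and 6 in the same order of lists. TRM-CAT6-1, a methionine tRNA in the ubiquitin ligase gene FBXO31, scored 118, 72, 123, 9 and 5. In all 3 genes the scores in ΔLa-module and ΔNTD were the lowest, and FL led in the first pair only. TRA-AGC8-1, an alanine tRNA in AGBL5, scored 68, 43, 78, 10 and 3. TRR-TCT4-1, an arginine tRNA in the inflammasome gene AIM2, scored 61, 29, 50, 10 and 10, with its FL peak 81 nt from the 5′ splice site. TRA-TGC2-1, an alanine tRNA in ENSG00000287279, scored 47, 24, 48, 8 and 5. These 6 genes had ΔNTR scores below both FL and ΔCTR in each case.

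The 6 tRNA genes present in 4 lists had lower scores. In FL, ΔNTR, ΔCTR and ΔLa-module, TRE-TTC4-2 scored 51, 28, 37 and 9, and TRK-CTT1-1 in ARMH4 scored 30, 16, 26 and 5. TRN-GTT4-1 in CROCC scored 29, 7, 13 and 3, TRC-GCA3-1 in ZNF767P scored 26, 12, 29 and 5, and TRR-CCT1-1 in KCTD2 scored 16, 7, 21 and 3. Those 5 were absent from ΔNTD, whereas TRA-AGC2-2 in LINC01623 was absent from ΔLa-module and scored 33, 23, 24 and 5 in FL, ΔNTR, ΔCTR and ΔNTD. The strongest gene confined to the 3 variants with a La-module was TRX-CAT1-4, with scores of 80, 41 and 24. Placement differs among these genes, since the central 25 nt of the TRM-CAT6-1 peak had 13 copies in the genome, that of TRN-GTT4-1 12 and that of TRA-AGC8-1 6, while the peaks of TRL-AAG4-1 and TRR-TCT4-1 had a single copy.

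Summed over tRNA genes and copies, the score in list order was 1580, 758, 1109, 172 and 80. As a percentage of FL this was 48.0, 70.2, 10.9 and 5.06 in the last 4 lists. The exonic score of the same lists stood at 92.1%, 118%, 1.67% and 0.706% of FL. Relative to FL, tRNA sequences thus scored lower than exons in ΔNTR and ΔCTR and higher than exons in ΔLa-module and ΔNTD. In ΔLa-module the 10.9% on tRNA sequences stood beside 9.38% for the other intronic peaks. Scores vary with the depth of each list, and no replicate values were used here to give these percentages an error.

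Peaks on tRNA sequences gathered at a pair of positions. Overlapping intronic peaks of the 5 lists were joined into sites, and 59 sites lay on tRNA genes or copies. With position 1 as the first base of the tRNA, 23 sites were centred at the 5′ end, from -10 to 5, and 22 in and around the anticodon arm, from 27 to 43. The remaining 14 were elsewhere, among them TRL-AAG4-1 with its FL peak centred at position 22. Each group mixed genes and copies, with 15 genes and 8 copies at the 5′ end and 15 genes and 7 copies at the anticodon arm. Glutamate tRNAs made up 5 of the 5′-end sites and 3 of the anticodon-arm sites, and lysine tRNAs 4 and 5, with no account taken of family size. In ΔLa-module, 1 of 11 tRNA gene peaks was at the 5′ end and 7 of 11 were at the anticodon arm, against 11 and 14 of 33 in FL, and the intervals of these shares overlap (1.62 to 37.7% against 19.8 to 50.4% for the 5′ end).

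**Figure D1:**
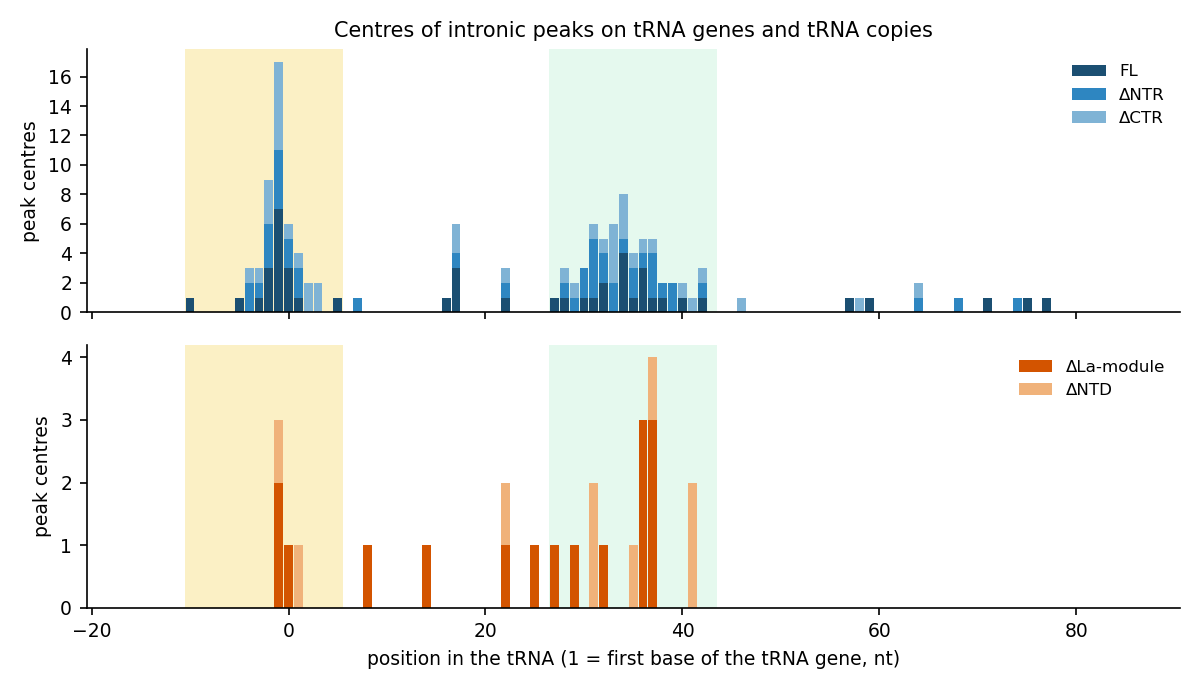
Number of intronic peak centres at each position of the tRNA, counted in nt from the first base of the tRNA gene, with FL, ΔNTR and ΔCTR stacked above and ΔLa-module and ΔNTD stacked below. Yellow shading marks positions -10 to 5 and green shading positions 27 to 43, which together hold 45 of the 59 tRNA sites.

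Sharing between lists set tRNA sequences apart from the other intronic peaks. All 16 tRNA peaks of ΔLa-module overlapped an FL peak, and so did all 9 of ΔNTD. Of the other intronic peaks, 7 of 174 did so in ΔLa-module (4.02%, 1.96 to 8.07) and 7 of 76 in ΔNTD (9.21%, 4.53 to 17.8). In FL, 76.1% of the tRNA peaks (62.1 to 86.1) and 16.5% of the others (14.5 to 18.8) were overlapped by a peak of any other list. Sharing rose with the score in both kinds of peak. At a score of 10 or more, 23 of 23 FL tRNA peaks and 64 of 69 other FL intronic peaks were shared, a difference of 7.25 points (-7.64 to 15.9). At a score of 4 to 9 the shares were 64.7% and 39.3%, with a difference of 25.4 points (1.02 to 44.4).

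The overlap with the 2 lists that lack the La-module also differed by kind of peak among FL peaks with a score of 10 or more. This range has no upper limit, and scores within it were not matched between the kinds of peak. At a score of 10 or more, a ΔLa-module peak overlapped 15 of 23 FL tRNA peaks (65.2%, 44.9 to 81.2), 7 of 69 other intronic peaks (10.1%, 5.00 to 19.5) and 75 of 1828 exonic peaks (4.10%, 3.29 to 5.11). The difference to exonic peaks was 61.1 points for tRNA peaks (40.8 to 77.1) and 6.04 points for the other intronic peaks (0.801 to 15.4). A ΔNTD peak overlapped 9 of the 23 tRNA peaks, 6 of the 69 others and 28 of the exonic peaks. The same order held for the strong peaks of ΔNTR, where ΔLa-module overlapped 13 of 20 tRNA peaks, 7 of 48 other intronic peaks and 66 of 1326 exonic peaks, and for those of ΔCTR, with 16 of 26, 5 of 56 and 55 of 2249.

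Taken over all scores, intronic peaks recurred less often than exonic ones in FL, ΔNTR and ΔCTR. A ΔNTR peak overlapped 12.7% of the FL intronic peaks and 37.3% of the FL exonic peaks, a difference of -24.7 points (-26.6 to -22.5). With at least 50% of both peaks overlapping the difference was -13.7 points (-15.5 to -11.7), and in ΔNTR and ΔCTR it went from -16.9 and -17.1 to -7.87 and -8.62. The gap was smallest for strong peaks. At the minimum score 2.25% of intronic and 18.9% of exonic FL peaks were overlapped, at 4 to 9 24.1% and 44.5%, and at 10 or more 84.8% and 88.3%, where the difference of -3.57 points has an interval that spans 0 (-12.4 to 2.57). Joined over the 5 lists the intronic peaks made 3213 sites, of which 2954 (91.9%, 90.9 to 92.8) were in a single list, against 75.5% of 31492 exonic sites. By list, 986 sites were in FL alone, 911 in ΔNTR alone, 823 in ΔCTR alone, 166 in ΔLa-module alone and 68 in ΔNTD alone. FL, ΔNTR and ΔCTR together, without the other 2 lists, shared 83.

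At the other end, 27 intronic sites were in 4 or 5 lists, which is 0.840% of the sites (0.578 to 1.22), against 0.381% of exonic sites (0.319 to 0.455). Of these 27 sites 17 held tRNA sequence (63.0%, 44.2 to 78.5). The tRNA share was 0.711% among sites in 1 list, 7.43% in 2, 11.9% in 3, 60.0% in 4 and 66.7% in 5.

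tRNA copies supplied the strongest intronic site of FL, in the lncRNA gene ENSG00000290790, printed above. Its scores in list order were 267, 113, 154, 24 and 28, and it was the highest intronic site in FL, ΔCTR and ΔNTD. It matched a glutamate tRNA over 42 nt at 97.6% identity, with the peak centre at its first base. The host itself was at 0 to 0.0349 CPM in the PE150 input. A lysine tRNA copy of 63 nt in ENSG00000258603 scored above 100 in FL and 53, 95, 10 and 6 in the other lists, with its centre at tRNA position 36, but its central 25 nt had 13 copies in the genome. The BCAS3 site, a lysine tRNA copy of 67 nt, scored 93, 28, 34 and 5 and was absent from ΔNTD. ENSG00000275016 held a lysine tRNA copy with low scores of 9, 4, 3 and 6.

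The 10 sites in 4 or 5 lists without tRNA sequence were of several kinds. LINC01819 scored 123, 10, 40, 14 and 3 in list order, so that its ΔNTR score was below that of ΔLa-module. SH3RF3 scored 65, 26, 54, 7 and 4, although its gene had 0 counts in all 12 input libraries. Those 2 sites and the PGK1 block described below were the sites without tRNA sequence in all 5 lists. BRINP1 scored 39, 19, 27 and 4 in FL, ΔNTR, ΔCTR and ΔLa-module, ENSG00000236501 scored 19, 10, 33 and 3, and LRFN2 scored 21, 10, 4 and 3. DIP2C scored 22, 6, 9 and 3 and NINJ1 9, 6, 6 and 3 in FL, ΔNTR, ΔCTR and ΔNTD. KIF3C, a kinesin gene, scored 19, 7, 38 and 4 in the same lists at a stretch that matched 7SL RNA over 94 nt. BRINP1 and LRFN2 were at 0.120 CPM or less in the PE150 input, whereas KIF3C was at 68.8 to 76.6.

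**Figure D2:**
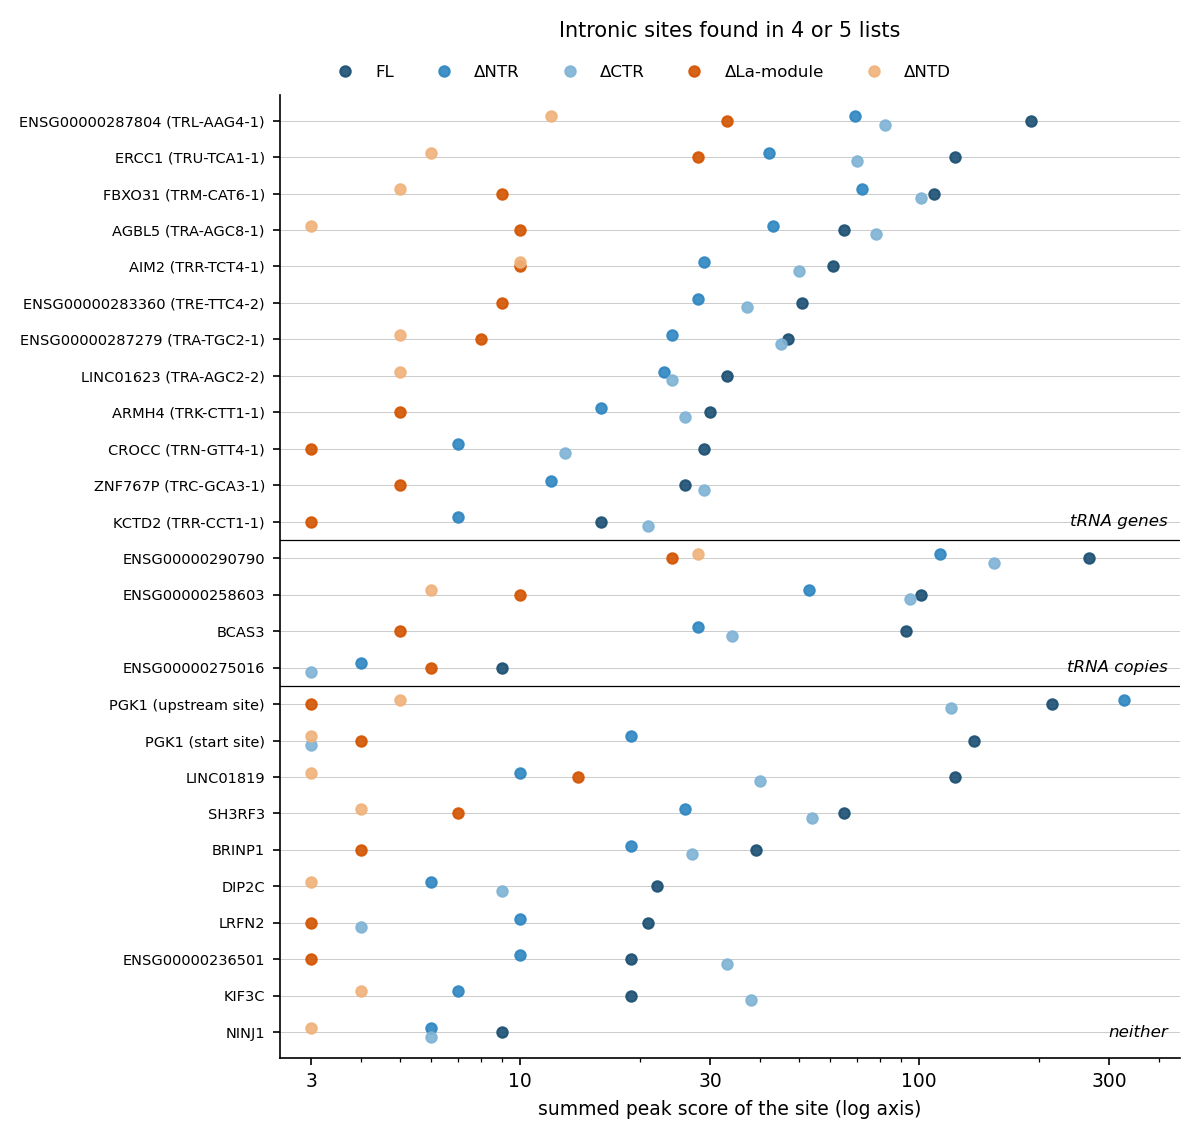
Summed peak score (log axis) of 26 of the 27 intronic sites found in 4 or 5 lists, with 1 dot per list, grouped into sites on tRNA genes, on tRNA copies and on neither. The sites in the upper groups hold tRNA sequence, and ΔLa-module and ΔNTD dots lie at 33 or below.

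Several strong sites were confined to FL, ΔNTR and ΔCTR. ENSG00000287856 scored 161, 99 and 121 at a narrow peak of 17 nt that matched 45S rRNA over 43 nt at 81.4% identity. GGA3, which encodes a sorting adaptor of the Golgi, scored 89, 117 and 84, with ΔNTR highest. THADA scored 54, 49 and 133, with ΔCTR highest. DOP1A scored 53, 24 and 40 at 76 nt from a 5′ splice site. LINC01312 scored 80 in FL and 138 in ΔCTR, matched 7SL RNA over 72 nt at 83.3% identity and had no peak there in ΔNTR.

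Splice sites were the next feature. Intronic peaks lay mostly deep in long introns, and the median intron that held an FL peak was 11694 nt long, with a median distance of 2066 nt to the nearest splice site. In the other lists the median intron was 13298, 12069, 15626 and 13098 nt long. Within 100 nt of a splice site of the intron were 103 FL peaks (8.53%, 7.08 to 10.2), 100 ΔNTR peaks (9.04%), 122 ΔCTR peaks (11.6%, 9.81 to 13.7), 13 ΔLa-module peaks (6.84%) and 6 ΔNTD peaks (7.06%). With each intron cut into 5 equal parts, the part next to the 5′ splice site held 308 FL peaks and the other parts 193 to 245.

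Measured against the sequence available, intronic peaks were denser next to exons. Here every exon edge of the host genes was used, also at starts and ends of transcripts, which are not splice sites. The 100 nt of intron beside these edges made up 2.22% of the 166 Mb of FL host introns and held 130 FL peaks. There were 35.4 FL peaks per Mb (29.5 to 42) in this zone and 6.65 per Mb (6.26 to 7.06) in the rest of the same introns, a ratio of 5.32 (4.40 to 6.39). ΔNTR had a ratio of 5.8 (4.75 to 7.01), ΔCTR of 7.67 (6.38 to 9.17), ΔLa-module of 5.04 (2.87 to 8.31) and ΔNTD of 5.5 (2.42 to 11). The 100 nt after an exon and the 100 nt before an exon had similar densities in FL, 37.5 (29.3 to 47.3) and 36.4 per Mb (28.3 to 46.1). In ΔCTR they were 40 (31.1 to 50.6) and 49.8 (39.8 to 61.5). Part of these peaks reached into the exon itself. Of the peaks within 100 nt of a splice site, 30 of 103 FL peaks had a base in an exon, and in the other lists 25 of 100, 45 of 122, 1 of 13 and 0 of 6 did so. Without such peaks, 6.23% of the FL peaks (4.99 to 7.77), 7.68% of ΔCTR (6.19 to 9.49) and 6.35% of ΔLa-module (3.67 to 10.8) were within 100 nt.

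**Figure D3:**
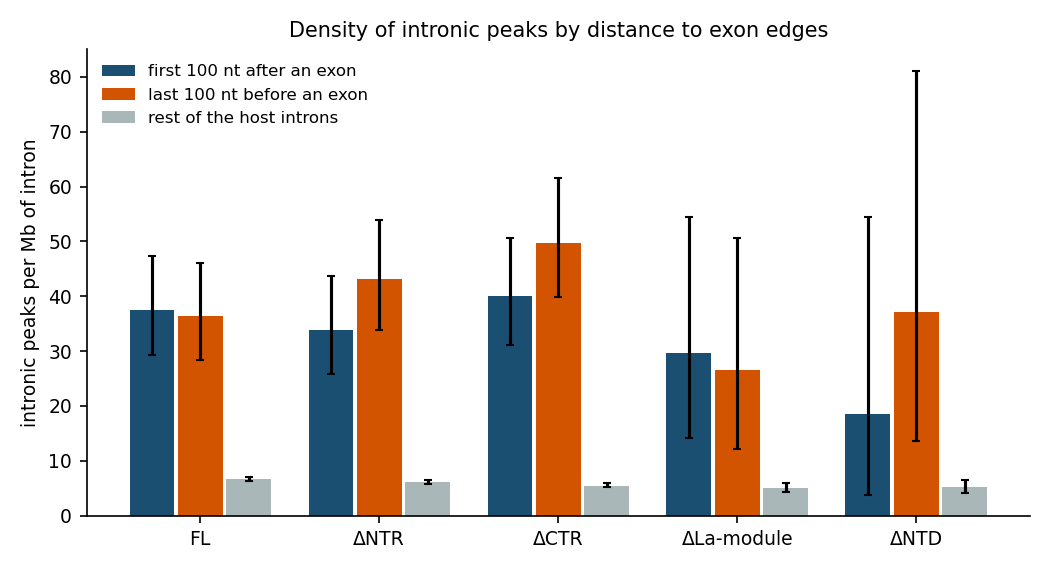
Intronic peaks per Mb of host intron in the 5 lists, in the 100 nt after an exon, the 100 nt before an exon and the rest of the host introns, with bars for the density and whiskers for 95% Poisson intervals. FL had 37.5 and 36.4 peaks per Mb beside exons and 6.65 in the rest.

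The strongest FL peaks near a 5′ splice site were those in ERCC1 and AIM2, on the tRNA genes TRU-TCA1-1 and TRR-TCT4-1, and the peak in DOP1A. Near a 3′ splice site they were ITGA3, TGFBR1 and KCTD2. ITGA3, an integrin subunit gene, scored 28 in FL and 22 in ΔCTR at 77 nt from the 3′ splice site and had no peak in the other lists. TGFBR1, a receptor for TGF-β, scored 24 in FL alone, with its centre 1 nt from the exon, so that the peak printed above covers the end of the intron and the start of the exon. KCTD2 is the host of TRR-CCT1-1, at 95 nt from the 3′ splice site. Near peaks were in genes that also held an exonic peak of the same list for 58.3% of FL (48.6 to 67.3) and 65.6% of ΔCTR (56.8 to 73.4), against 48.2% (45.3 to 51.2) and 43.7% (40.5 to 46.9) of the peaks farther away. In ΔLa-module this was 0 of 13 near peaks, and 19 of 177 others.

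The intronic peaks were spread thinly over many hosts. In FL 1019 genes held 1208 peaks and 137 genes held 2 or more, with at most 7 in a gene. The other lists had 939, 918, 186 and 83 hosts. Protein-coding genes held 87.7% of the FL intronic peaks (85.7 to 89.4) and lncRNA genes 11.8% (10.1 to 13.7), and the lncRNA peaks had the higher mean score, 12.7 against 5.33. The lncRNA scores included summed FL scores of 267 in ENSG00000290790, 195 in ENSG00000287804 and 105 in ENSG00000278996, and a peak of 123 in LINC01819. An exonic peak of the same list was present in 484 of the FL hosts (47.5%, 44.4 to 50.6), in 44.4% of the ΔNTR hosts and in 44.7% of the ΔCTR hosts. In ΔLa-module 17 of 186 hosts had one (9.14%, 5.78 to 14.1) and in ΔNTD 1 of 83 (1.20%, 0.213 to 6.51). Fewer genes had an exonic peak at all in these lists, 286 and 161 of 38884 genes with an intron against 4131 in FL.

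Hosts were expressed at moderate levels. The median host of the FL list was at 59.5 CPM in the FL PE150 input, and the median gene with an exonic peak at 87.3 CPM. Under 1 CPM were 13.5% of the FL hosts and 2.58% of the genes with an exonic peak. The FL hosts that had no exonic peak had a median of 18.5 CPM, and the corresponding hosts of the other lists had 17.5, 9.45, 62.2 and 69.0. CPM of a gene grows with its length, and it counts exons rather than introns of the host.

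ITGB1, an integrin gene, held 4 intronic peaks with a summed score of 47 in FL, while ΔNTR had 4 with 23 and ΔCTR 7 with 100, and the other lists had none. TRIO, a guanine nucleotide exchange factor gene of 389 kb, held 4, 7 and 1 weak peaks with summed scores of 12, 21 and 4. ENSG00000287264, a lncRNA gene with the tRNA genes TRL-TAA3-1 and TRK-TTT5-1, held 4, 3 and 3 peaks with 45, 23 and 31.

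Type I collagen genes, known targets of LARP6, contributed almost nothing to the intronic peaks. COL1A2 held 1 intronic peak, in ΔCTR, with a score of 7, and COL1A1 and LARP6 held none in any list. All 3 genes held exonic peaks in FL, ΔNTR and ΔCTR. The transgene was codon-optimised, so input counts of LARP6 (51.9 to 74.8 CPM in PE150) are no check of its induction. Of the 44 collagen genes, 7, 6 and 7 had an intronic peak in FL, ΔNTR and ΔCTR, and 0 in the other lists. Of 81 cytosolic ribosomal protein genes 1, 5 and 2 did so (1.23% in FL), although 48, 48 and 50 of them had an exonic peak. SR and hnRNP splicing factor genes had intronic peaks in 4, 0 and 1 of 35 cases, and exonic peaks in 20, 20 and 24. Over all 38884 genes with an intron, 2.62% had an intronic peak in FL and 10.6% an exonic peak.

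The start of PGK1, which encodes a glycolytic enzyme, held the densest run of peaks. The block spans 546 nt, chrX:78103798-78104343 on the plus strand, from 450 nt before the first exon of the transcript PGK1-201 (chrX:78104248-78104405) to 96 nt into it. The sequence before that exon counts as intronic because a longer annotated transcript starts upstream. The block held 6 FL peaks with a summed score of 356, 7 ΔNTR peaks with 558, 5 ΔCTR peaks with 166, 3 ΔLa-module peaks with 11 and 2 ΔNTD peaks with 8. In contrast to most intronic peaks these were wide, up to 170 nt in FL and 186 nt in ΔCTR. The highest FL peaks scored 137, over positions -102 to 67 relative to the first base of the exon, and 107, over -333 to -209, and the highest ΔNTR peaks 203, over -37 to 95, and 136, over -332 to -268. The intronic peaks of the block carried 4.75%, 6.60%, 2.05%, 0.963% and 2.5% of the summed intronic score in list order. PGK1 was at 898 to 1217 CPM in the PE150 inputs of the variants. Lentiviral vectors of the kind used to make such lines often carry a PGK1 promoter ahead of the selection gene, and parental cells lack the vector. The part of vector RNA in these peaks was not tested.

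**Figure D4:**
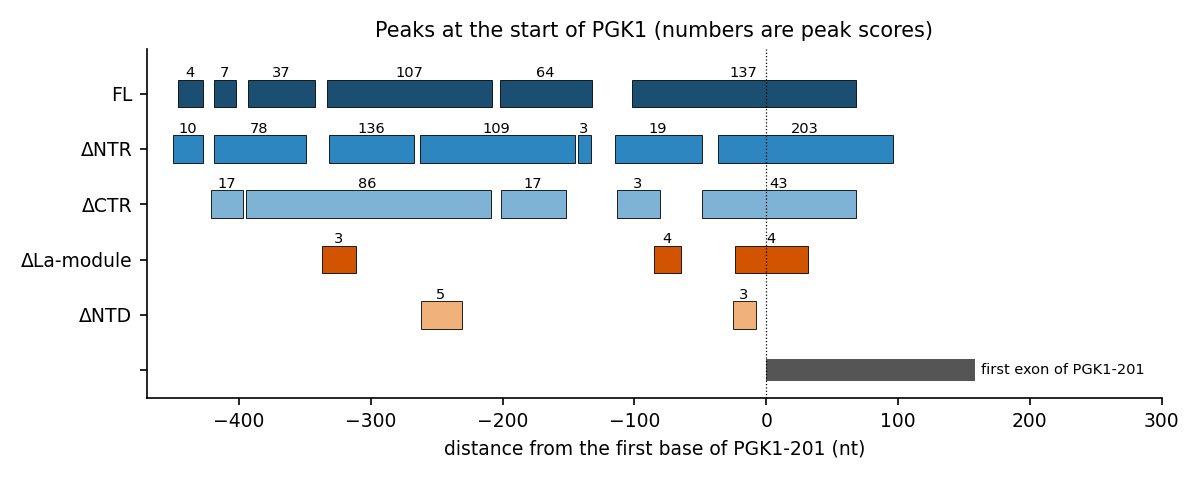
Peaks at the start of PGK1 in the 5 lists, with distance in nt from the first base of PGK1-201 on the horizontal axis, 1 row per list and the peak score beside each peak. The peaks fill the 450 nt before the exon in FL, ΔNTR and ΔCTR and are few and weak in ΔLa-module and ΔNTD.

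Ribosomal RNA was another small class with high-scored peaks. A match of at least 40 nt to the 45S rRNA precursor was held by 22 FL peaks (1.82%), 20 ΔNTR peaks (1.81%), 24 ΔCTR peaks (2.28%) and 0 peaks of ΔLa-module and ΔNTD, against 0.0614% of the windows along host introns. These peaks carried 5.70%, 4.98% and 4.29% of the intronic score in FL, ΔNTR and ΔCTR, and peaks with a 7SL match of this length 4.16%, 3.12% and 5.49%. Antisense matches to 45S rRNA of that length were in 2, 2 and 6 peaks, the last of these 0.571% against 0.0285% of the windows. At 20 nt or more the antisense shares were 3.39%, 3.53% and 5.04%, against 0.711%. Sense matches of that length were in 5.30% of the FL peaks (4.17 to 6.71), against 0.757% of the windows. ΔLa-module had 2 among 190 peaks (1.05%, 0.289 to 3.76), with an interval below that of FL, and ΔNTD had 4 among 85 (4.71%, 1.85 to 11.5). At 40 nt or more, counts of 0 of 190 and 0 of 85 allow shares up to 1.98% and 4.32%. At that length the lists without a La-module are too short to set them apart from FL. Reads that mapped to rRNA had been set aside by the authors before genome alignment. The peaks of this class therefore rest on reads that passed this step. A pair of lncRNA genes on chromosome 21 that contain rRNA sequence held several of these peaks. Their peaks of this class matched 45S rRNA over the whole window searched, without a mismatch. Whether they lie in rRNA genes or in copies, and how reads were placed among identical sequences, was not tested. ENSG00000278996 held 5, 5 and 4 in FL, ΔNTR and ΔCTR with summed scores of 105, 60 and 26, and ENSG00000280441 held 4, 3 and 5 with 45, 14 and 27. In GCNT1, a glycosyltransferase gene, an intronic rRNA copy held 2, 1 and 3 such peaks with summed scores of 42, 14 and 25. The highest peak of ENSG00000278996, with a score of 74 in FL, was centred at position 12752 of the 45S precursor, and the highest of GCNT1, with 37 in FL, at position 12774.

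Matches to snoRNAs and microRNA precursors were near the level of host introns. Sense matches to 7SL RNA were somewhat above it in FL, ΔNTR and ΔCTR, though some intervals reached it. GENCODE annotates genes of these classes and of 7SK and Y RNA as exons, so peaks centred on them counted as exonic. The tRNA genes came from RefSeq and were not set aside in this way, so the classes cannot be compared on equal terms. 7SL RNA is the RNA of the signal recognition particle and the source of Alu repeats. It was matched over at least 40 nt by 2.40% of the FL peaks (1.68 to 3.43), 2.71% of ΔNTR (1.91 to 3.85) and 2.85% of ΔCTR (2.01 to 4.05), against 1.84% of the windows. Antisense matches to 7SL were 2.24%, 2.26% and 2.19%, against 2.19%. Matches to snoRNAs were 1.74%, 1.99% and 1.52%, against 2.36%, and to microRNA precursors 5.79%, 4.43% and 4.95%, against 5.36%. 7SK RNA was matched by 0 peaks in every list. Y RNA matches of at least 40 nt were in 2, 1, 6, 1 and 0 peaks in list order, against 0 of 45592 windows, among them a copy of 82 nt in WIPF2 with scores of 4 in FL and 5 in ΔCTR. The highest-scored examples of 5S rRNA, snRNA, mitochondrial rRNA and RMRP were weak or short, with a 5S rRNA copy of 55 nt in FAM234B scoring 4 in ΔCTR, 32 nt of a U2 snRNA copy in NEDD4 scoring 8 in ΔCTR, 24 nt of mitochondrial rRNA in MIDN scoring 5 in ΔCTR and 30 nt of RMRP in SLX9 scoring 3 in FL. A vault RNA match of 22 nt lay beside the THADA peak.

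Few intronic peaks shared their intron with an annotated small RNA gene. The windows along host introns were not used for this count, so it cannot be set against the level of host introns. Peaks centred on such a gene counted as exonic by the rule, so these counts concern only peaks outside the gene itself. Of the 1208 FL peaks 4 shared their intron with an annotated snoRNA and 32 with a microRNA, and in the lists other than ΔCTR none was within 100 nt of either (for snoRNAs in FL 0 of 1208, which allows a share of up to 0.317%). In ΔCTR 1 of 1051 peaks was within 100 nt of a microRNA. Genes that host snoRNAs in their introns held an intronic peak in 25 of 303 cases in FL (8.25%, 5.65 to 11.9), and in 18, 22, 3 and 3 cases in the other lists. Of all 38884 genes with an intron 2.62% held one in FL, and exonic peaks of FL were also more frequent in the snoRNA hosts, at 30.4% against 10.6%. Exonic peaks were present in 92, 94, 97, 7 and 4 of these genes.

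Around the peak centre the sequence was richer in G and C than the introns that held it. Over 31 nt, G and C made up 47.6%, 48.8%, 48.3%, 42.4% and 46% of the bases in list order, whereas the whole host introns had 41.2%, 41.3%, 40.9%, 39.9% and 41.5%. Exonic peaks were at 48.8% in FL and at 46.1% in ΔLa-module. Without the tRNA peaks the FL value was 47.3% and the ΔLa-module value 41.4%. A run of at least 8 bases of C or T was present in 17.7% of the FL windows (15.7 to 20.0), 18.6% of ΔNTR (16.4 to 21.0), 17.9% of ΔCTR (15.7 to 20.3), 21.6% of ΔLa-module (16.3 to 28) and 17.6% of ΔNTD (11 to 27.1). The host introns had such runs in 12.5%, 12.5%, 12.3%, 11.9% and 12.2% of windows of this length, and FL exonic peaks in 14.5%.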

How the data were processed

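The authors demultiplexed the iCLIP reads, trimmed them with Trim Galore, discarded reads that Bowtie 2 mapped to rRNA or tRNA, aligned the rest with STAR to GRCh38.p13 with GENCODE 42 and removed duplicates with UMI-tools (versions not given in the sources used here). Peaks were called per replicate with Clippy (rolling mean of 15 nt, at least 3 counts). The deposited peak score is the sum over merged replicates after parental peaks were subtracted with bedtools 2.30.0, and is not scaled to depth. The deposited input counts are whole reads per gene, here turned into CPM. The samples were grouped by the labels. Peaks were placed with GENCODE 44 and compared by overlap of at least 1 nt on the same strand. Small RNA matches were BLASTN 2.17.0 hits of at least 20 nt and 80% identity within 50 nt of the centre, and windows of that length every 2000 nt of host intron gave the reference. Shares have Wilson intervals, differences Newcombe intervals and densities exact Poisson intervals (SciPy 1.17.1). Named sites were the strongest per list, those in 4 or 5 lists, those strongest near splice sites or in a small RNA class, the leading hosts, and COL1A1, COL1A2 and LARP6. The members, gene lists and rules were chosen with earlier results of these data known, and the split by tRNA sequence after the scores were seen. The statistics were tested on simulated data. The values of 1 site are not reported here, though the counts include it.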

Additional observations from a re-analysis of the deposited data

How the results depend on the processing

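No paired analysis was possible because each list pools its replicates without their numbers, and no replicate could be left out for the same reason. Alternatives were held against the counting interval of the value they replaced. Numbers of peaks and hosts and host CPM were held against a fixed fold range instead. Of 443 alternative values, 293 stayed inside, 149 moved outside and 1, whose interval had excluded 0, changed sign. Another 3 differences, whose intervals had spanned 0, changed sign too. The excess of intronic peaks over FL in ΔLa-module and ΔNTD kept its direction in 18 of 18 alternatives. The density beside exons stayed above the rest of the introns in 20 alternatives that left out some peaks, with ratios of 4.07 to 11.9 and a lowest bound of 1.22. This density was not recomputed without the peaks that reach into an exon. Weak peaks mattered most. With scores above 3 only, the FL values became 4.82% intronic, a mean score of 15.1, 38.8% of hosts with an exonic peak, 36.5 CPM for the median host, 15.3% with a tRNA match of at least 20 nt (5.22% with all peaks), 41.6% overlapped by ΔNTR and 51.2% G and C. The excess over FL became 16.1 points in ΔLa-module and 33.2 in ΔNTD. The overlap of ΔLa-module peaks by FL, intronic minus exonic, turned from -18.3 to 8.50 points (-11.0 to 26.4). Without peaks of several genome copies the FL values were 7.86% intronic, a mean score of 5.68 and 46.9% G and C. For the definition of an exon, basic transcripts gave 9.69% intronic in FL, protein-coding exons 10.5% (28.5 points of excess in ΔLa-module) and protein-coding hosts 7.39%. The median score was 3.00 against a mean of 6.21. Of FL peaks, 6.29% were near a splice site of the longest intron, 5.63% within 50 nt and 16.6% within 300 nt. tRNA matches were 2.81% within the peak and 10 nt on each side and 3.81% at 40 nt or more. The central 31 nt had several copies for 8.20%. The SE50 input, from small RNA libraries, gave a median host of 0.548 CPM and is a different measure. Of 2 alternatives chosen after seeing the data, leaving out tRNA peaks gave a mean score of 5.09 and 10.4% overlapped by ΔNTR, and leaving out the PGK1 block a mean score of 5.94. iCLIP depth is not known from the lists, and the values of ΔLa-module and ΔNTD rest on 190 and 85 intronic peaks.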
